A study of Mus musculus with 8 samples.

Results

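Fibronectin and 8 genes that code for matricellular or closely related matrix glycoproteins (Fn1, Postn, Tnc, Tnxb, Thbs1, Thbs2, Sparc, Ccdc80 and Emilin1) were measured in cultured mouse malignant peripheral nerve sheath tumor (MPNST) cells by RNA sequencing. They were taken by symbol from a table of raw counts for 50600 genes. All 9 were among the 14497 genes that passed the filter used for the tests, a minimum of 10 counts in 2 or more of the 8 libraries.

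The NF1-MET line came from an MPNST of an Nf1 fl/ko; lox-stop-lox MET tg/+; Plp-creERT tg/+ mouse, in which the Plp promoter drives an inducible Cre, and the tumor carried Met amplification and wild-type Trp53. The paper also reports that the NF1-MET line had lost Cdkn2a by a spontaneous deletion. NF1-MET;sgP53 was made from NF1-MET with a lentiviral CRISPR guide against exon 4 of Trp53 and puromycin selection. Both lines therefore share the Nf1 and MET alleles, and each genotype is represented by 1 line, so that p53 loss and other differences between the lines cannot be told apart. The library columns of NF1-MET carry a code that could stand for an empty-vector control, which the labels do not state. Each line was given DMSO (vehicle) or the MET kinase inhibitor capmatinib at 100 nM for 24 h, with 2 libraries in each of the 4 groups. The labels call the replicates biological but name no separate cultures beyond the wells of a plate, so p-values measure the spread between these libraries.

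Fibronectin is a secreted dimer that cells assemble into fibrils by pulling on it through integrins, and it links collagen, heparan sulfate and cell surfaces. Matricellular proteins such as thrombospondins, tenascins, periostin and SPARC are placed in the matrix without being its main scaffold, and they adjust adhesion, collagen assembly and growth factor release. In peripheral nerve several of them are produced by Schwann cells and fibroblasts after injury, and neurofibromas are rich in extracellular matrix.

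Library totals were 30.1 to 42.8 M counts, and replicates differed by 1.56 to 1.87 times the sampling noise. Gm42418, a transcript that overlaps ribosomal RNA, took 1.11% to 13.1% of counts, so levels are given as counts per M (CPM) on totals scaled by edgeR's TMM method. With vehicle, Trp53 transcript was at a mean of 188 CPM in NF1-MET and 98.8 CPM in NF1-MET;sgP53, and Cdkn1a, a p53 target that stops the cell cycle, was at 90.1 and 28.3 CPM. Of 9 Schwann cell lineage markers, Sox10, S100b, Ngfr, Cdh19 and Foxd3 each had means of at most 0.39 CPM in every group, so the labelled nerve sheath origin was not visible in these markers. Leukocyte markers summed to 5.93 to 12.9 CPM over 6 genes and endothelial markers to 0.13 to 0.36 CPM over 5 genes.

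In mm10, Fn1 (ENSMUSG00000026193) lies on the minus strand at chr1:71585520-71653200, Postn (ENSMUSG00000027750) on the plus strand at chr3:54361109-54391037, and Tnc (ENSMUSG00000028364) on the minus strand at chr4:63959785-64047015. Tnxb (ENSMUSG00000033327) lies on the plus strand at chr17:34670535-34719815, Thbs1 (ENSMUSG00000040152) on the plus strand at chr2:118111876-118127133, and Thbs2 (ENSMUSG00000023885) on the minus strand at chr17:14665500-14694235. Sparc (ENSMUSG00000018593) lies on the minus strand at chr11:55394500-55423183, Ccdc80 (ENSMUSG00000022665) on the plus strand at chr16:45093402-45128077, and Emilin1 (ENSMUSG00000029163) on the plus strand at chr5:30913402-30921277. Their exons, joined over all annotated transcripts, span 3788 bases for Sparc to 12209 for Tnxb. On the opposite strand an annotated gene covers 2.5% of the exon bases of Fn1 (Apol7d), 2.26% of Tnc (8030451A03Rik), 3.42% of Thbs1 (Gm29233) and 0.02% of Tnxb (Cyp21a2-ps), and reads there cannot be assigned without the strand setting of the counting.

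Promoter sequences from RefSeq (GRCm38.p6, the assembly of mm10) matched 6 of the 9 genes, and Fn1, Thbs1 and Ccdc80 had no entry. The 250 bases upstream of the start site are printed for Postn, which had the largest rise, for Thbs2, which fell, and for Tnc, a gene between them. Capitals mark the letters TATAAA, read on both strands (TTTATA on the minus). The windows are chr3:54360857-54361106 on the plus strand for Postn, chr4:64047016-64047265 on the minus strand for Tnc and chr17:14694263-14694512 on the minus strand for Thbs2.
Postn: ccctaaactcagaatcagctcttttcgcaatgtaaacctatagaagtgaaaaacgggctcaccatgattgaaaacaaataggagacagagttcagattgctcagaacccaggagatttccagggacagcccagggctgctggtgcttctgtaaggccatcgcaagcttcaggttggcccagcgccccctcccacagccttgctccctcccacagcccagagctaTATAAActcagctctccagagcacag
Tnc: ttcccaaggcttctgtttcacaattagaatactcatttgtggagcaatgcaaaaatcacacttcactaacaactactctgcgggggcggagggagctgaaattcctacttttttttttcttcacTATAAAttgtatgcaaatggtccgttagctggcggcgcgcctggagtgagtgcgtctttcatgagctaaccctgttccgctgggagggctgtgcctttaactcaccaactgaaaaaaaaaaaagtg
Thbs2: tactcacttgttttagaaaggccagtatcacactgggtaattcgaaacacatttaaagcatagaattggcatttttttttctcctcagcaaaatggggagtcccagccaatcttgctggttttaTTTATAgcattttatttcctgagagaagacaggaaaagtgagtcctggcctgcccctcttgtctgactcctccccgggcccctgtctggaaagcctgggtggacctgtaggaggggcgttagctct

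The letters TATAAA began 26 bases before the printed Postn start site (54361107) and 126 bases before the printed start sites of Tnc and Thbs2, in the last on the opposite strand. The window of another Postn start site in the same table (54359267) did not hold them, and that of another Tnc start site (64046936) held the same copy. They occurred in 12.4% of 32851 promoters of the same length. The AP-1 motif TGANTCA, present in 6.75% of promoters, was found among these genes in Tnxb alone, 55 bases before its start, and neither CATTCC (12.6% of promoters) nor the CArG box (1.47%) was found in any of the windows. Of these windows, that of Emilin1 lay wholly in annotated exon and that of Sparc did for 238 of its 250 bases, so neither is purely upstream sequence. The window of the other Tnc start site (64046936) also held 79 exon bases. TGANTCA and the CArG box were read on both strands like the others and are given only as matches of letters.

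Together the 9 genes held 0.812% and 0.835% of all counts in vehicle-treated NF1-MET and 1.9% and 1.91% with capmatinib. In NF1-MET;sgP53 they held 0.953% and 0.971% with vehicle and 2.01% and 2.16% with capmatinib. Both capmatinib groups were above both vehicle groups, with 95% Wilson intervals of at most 0.0049 percentage points to either side, which cover counting error only. With Gm42418 left out of the total, the shares were 0.881% to 1.03% with vehicle and 2.15% to 2.23% with capmatinib. Fn1 alone supplied 50.8% to 58.7% of the counts of the 9 genes.

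Scaled to exon length, Sparc had the highest level in all 4 groups, followed by Fn1 and Thbs1. In NF1-MET with vehicle these were at 501 ± 3.81, 360 ± 9.55 and 177 ± 1.18 CPM per kb (mean ± SD, n = 2), ahead of Thbs2 at 66.1 ± 2.86. Emilin1 (17.3 ± 0.40) and Tnc (17.0 ± 0.34) came next and overlapped, followed by Ccdc80 (3.74 ± 0.28), Postn (0.85 ± 0.035) and Tnxb (0.15 ± 0.025). NF1-MET;sgP53 with vehicle had the same order except that Tnc (21.5 ± 0.42) stood above Emilin1 (16.3 ± 0.16) without overlap.

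With capmatinib the upper 3 places were unchanged, at 1142 ± 6.68 CPM per kb for Sparc, 925 ± 33.5 for Fn1 and 762 ± 4.65 for Thbs1 in NF1-MET. Ccdc80 moved to the fourth place (59.8 ± 0.69), and Thbs2 dropped to the seventh (35.3 ± 0.64). Emilin1 (40.6 ± 0.19) and Tnc (39.7 ± 1.43) again overlapped in NF1-MET. In capmatinib-treated NF1-MET;sgP53, Thbs2 (32.8 ± 0.40) and Postn (32.4 ± 0.16) overlapped, whereas in vehicle they had been at 46.8 ± 0.88 and 1.57 ± 0.093. Among 14472 genes ranked per length, Sparc stood at places 29 to 30 in the vehicle libraries and 12 to 14 with capmatinib, and Thbs1 at 133 to 160 and 25 to 29.

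**Figure D1:**
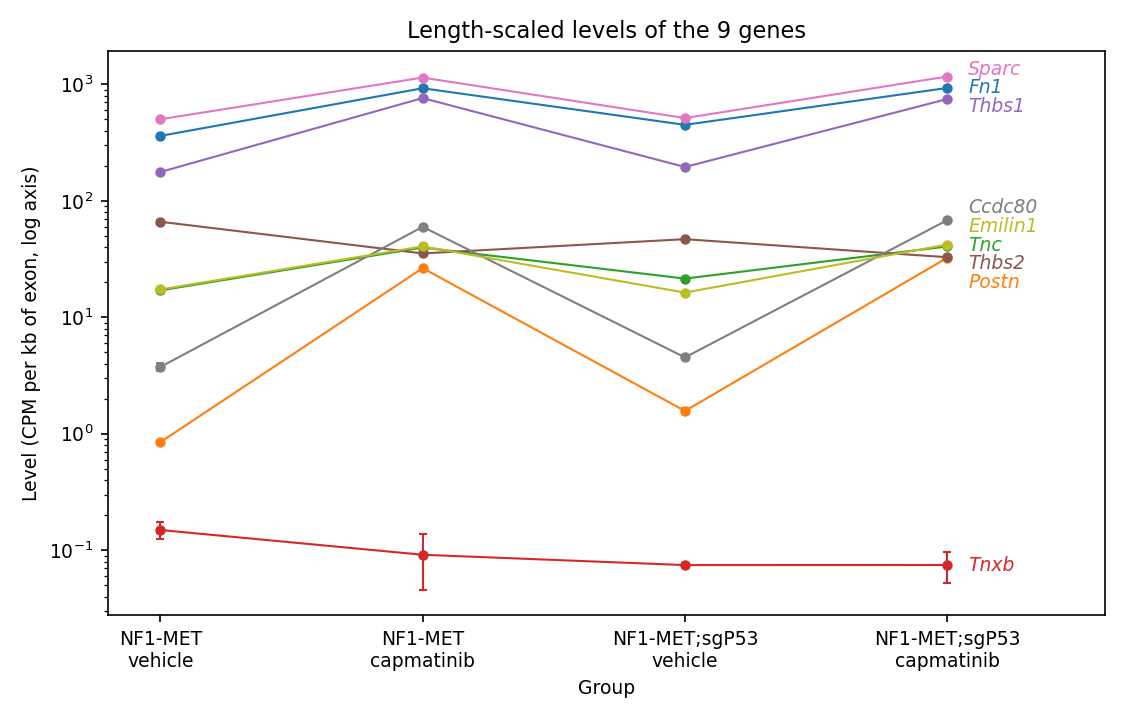
Levels of the 9 genes in CPM per kb of exon (log axis) in the 4 groups, points showing the mean and bars the SD of 2 libraries (bars smaller than the point are hidden). With capmatinib Ccdc80 passes Thbs2 and Postn comes close to it, while Sparc, Fn1 and Thbs1 keep the upper 3 places.

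Capmatinib against vehicle asks which of these transcripts changed when MET was inhibited. In NF1-MET, 7 of the 9 genes were higher with capmatinib and 2 were lower, and all 7 rises were at least 2-fold. Over all 14496 genes tested, 35.5% were called higher and 34.7% lower at an adjusted p under 0.05 (edgeR's quasi-likelihood test), and 11.5% were higher and 5.35% lower by at least 2-fold. The median log2 fold change was 1.21 over the 9 genes and 0.0020 over all genes tested. In NF1-MET;sgP53, 7 were higher, 6 of them by at least 2-fold, 1 was lower and 1 was not called, with a median of 1.19. There the shares over all 14497 genes were 34.2% higher and 33.4% lower, or 10.4% and 5.02% by at least 2-fold. In these bulk libraries, more cells that make a transcript and more transcript per cell cannot be told apart.

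**Figure D2:**
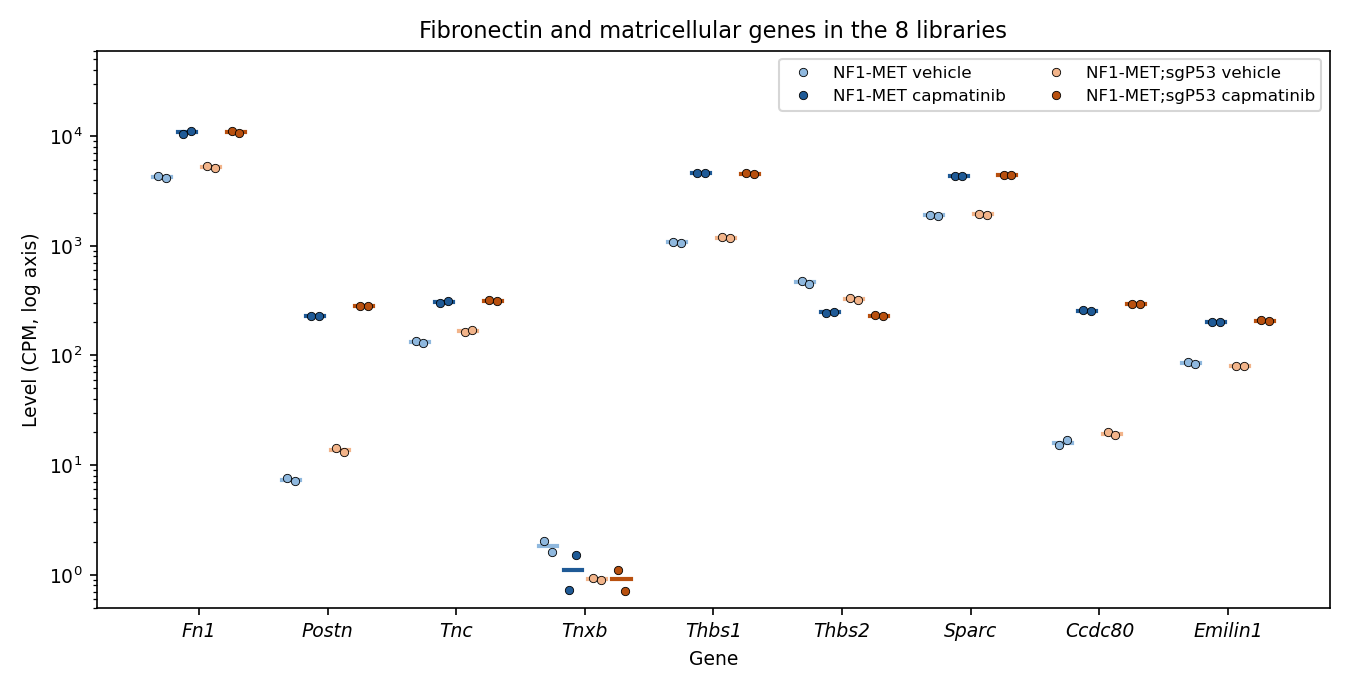
Level of each gene in the 8 libraries in CPM (log axis), with a point for each library and a bar at the mean of its group. The capmatinib points lie above the vehicle points of both lines for 7 genes and below them for Thbs2, while Tnxb lies near 1 CPM and its treatments overlap in NF1-MET;sgP53.

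Fn1, the fibronectin gene, rose in both lines. It was measured at 4290 and 4132 CPM in vehicle-treated NF1-MET and 10534 and 11089 CPM with capmatinib. The NF1-MET;sgP53 values were 5366 and 5121 CPM with vehicle and 11132 and 10623 CPM with capmatinib. Neither pair overlapped. The log2 fold change was 1.34 in NF1-MET (SE 0.0174, adjusted p = 4.94e-34) and 1.05 in NF1-MET;sgP53 (SE 0.0227, adjusted p = 1.66e-20).

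Sparc codes for a collagen-binding glycoprotein that loosens adhesion and takes part in collagen fibril assembly. It stood at 1907 and 1887 CPM in vehicle-treated NF1-MET and 4310 and 4346 CPM with capmatinib. The NF1-MET;sgP53 libraries had 1962 and 1924 CPM with vehicle and 4426 and 4413 CPM with capmatinib. The rise was nearly the same size in both lines, with log2 fold changes of 1.17 (SE 0.0150, adjusted p = 3.69e-34) and 1.19 (SE 0.0194, adjusted p = 1.29e-22). Emilin1, an elastin-associated glycoprotein that also holds back TGF-β maturation, rose by a similar size. It went from 87.0 and 84.2 CPM to 201 and 200 CPM in NF1-MET and from 81.0 and 79.8 CPM to 210 and 206 CPM in NF1-MET;sgP53, without overlap. Its log2 fold changes were 1.21 (SE 0.0291, adjusted p = 1.27e-26) and 1.37 (SE 0.0334, adjusted p = 1.55e-19).

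The thrombospondins moved in opposite directions. Thbs1, whose product is a trimer that binds CD47 and activates latent TGF-β, was at 1078 and 1068 CPM in vehicle-treated NF1-MET and 4648 and 4608 CPM with capmatinib. The NF1-MET;sgP53 line had 1194 and 1174 CPM with vehicle and 4580 and 4505 CPM with capmatinib. These are 4.27-fold and 3.84-fold rises, with log2 fold changes of 2.09 (SE 0.0158, adjusted p = 1.99e-40) and 1.94 (SE 0.0202, adjusted p = 4.40e-26).

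Thbs2, a trimeric relative with anti-angiogenic activity that does not activate TGF-β, fell in both lines. Its levels were 477 and 449 CPM with vehicle and 244 and 251 CPM with capmatinib in NF1-MET. In NF1-MET;sgP53 they were 332 and 324 CPM with vehicle and 231 and 227 CPM with capmatinib. The groups did not overlap in either line, and the log2 fold changes were -0.92 (SE 0.0261, adjusted p = 1.28e-24) and -0.52 (SE 0.0302, adjusted p = 9.64e-13).

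The ratio of Thbs1 to Thbs2 per length joined both movements. It was 2.61 and 2.74 in vehicle-treated NF1-MET, 4.14 and 4.18 in vehicle-treated NF1-MET;sgP53, and with capmatinib 21.9 and 21.2 in the first line and 22.8 and 22.8 in the second. This ratio is taken within a library and does not depend on the scaling. The 2 vehicle groups were separated from each other, and both capmatinib groups lay far above them.

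The tenascins also differed. Tnc codes for tenascin-C, a hexameric glycoprotein that weakens adhesion to fibronectin, and rose from 134 and 130 CPM to 301 and 316 CPM in NF1-MET. In NF1-MET;sgP53 it rose from 165 and 169 CPM to 319 and 312 CPM. The groups did not overlap, and the log2 fold changes were 1.21 (SE 0.0273, adjusted p = 2.45e-27) and 0.92 (SE 0.0311, adjusted p = 6.22e-17), the second being 1.89-fold.

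Tnxb, the gene of tenascin-X, which spaces and stiffens collagen fibrils in connective tissue, had only 20 to 74 counts in a library. It was at 2.04 and 1.60 CPM in vehicle-treated NF1-MET and 0.72 and 1.51 CPM with capmatinib, and at 0.93 and 0.89 CPM in vehicle-treated NF1-MET;sgP53 and 1.11 and 0.72 CPM with capmatinib. The treatments did not overlap in NF1-MET and overlapped in NF1-MET;sgP53. The lower call in NF1-MET (log2 fold change -0.65, SE 0.260, adjusted p = 0.0273) was lost without replicate 1 of the vehicle (-0.47, adjusted p = 0.168), without replicate 1 of capmatinib (-0.28, adjusted p = 0.358) and with DESeq2 (-0.70, adjusted p = 0.123). Without replicate 2 of capmatinib the value was -1.34 (adjusted p = 0.00166). In NF1-MET;sgP53 the log2 fold change was 0.0013 with a 95% interval of -0.65 to 0.65, too wide at this depth to show a change of moderate size.

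Postn and Ccdc80 had the largest rises, from low levels. Postn codes for periostin, a fasciclin-domain protein that binds collagen and integrins and is made in healing wounds and in developing valves and periosteum. Its counts were 275 and 285 in vehicle-treated NF1-MET, 6390 and 8789 with capmatinib, 489 and 559 in vehicle-treated NF1-MET;sgP53, and 9917 and 10280 with capmatinib. As levels these were 7.58 and 7.15 CPM, 231 and 229 CPM, 14.2 and 13.1 CPM, and 281 and 283 CPM. No vehicle library came near a capmatinib library, and the log2 fold changes were 4.95 (SE 0.0419, adjusted p = 4.64e-39) and 4.37 (SE 0.0427, adjusted p = 1.99e-26), or 30.9-fold and 20.7-fold.

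Ccdc80 codes for a secreted matrix-associated protein. It was at 15.2 and 16.9 CPM in vehicle-treated NF1-MET and 259 and 254 CPM with capmatinib. The corresponding NF1-MET;sgP53 levels were 19.96 and 18.9 CPM and 292 and 294 CPM. The log2 fold changes were 3.98 (SE 0.0387, adjusted p = 2.06e-37) and 3.92 (SE 0.0391, adjusted p = 2.56e-26), which are 15.8-fold and 15.1-fold.

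**Figure D3:**
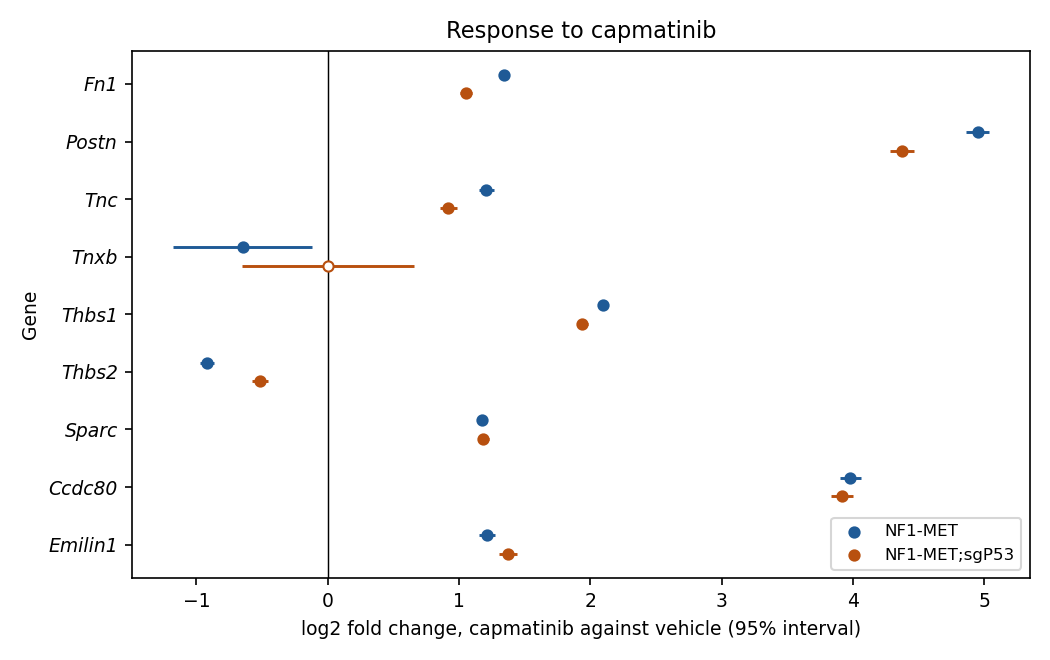
Log2 fold change of each gene, capmatinib against vehicle, in NF1-MET and NF1-MET;sgP53, with 95% intervals; open points were not called. Postn and Ccdc80 stand at 3.92 to 4.95, 5 further genes lie between 0.92 and 2.09, and Thbs2 lies below 0 in both lines.

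Markers of other cell types were read in the same libraries. Of 8 fibroblast markers, 4 rose and 3 fell in NF1-MET, and their summed level went from 7596 and 7690 CPM to 30960 and 31442 CPM, nearly all of it Col1a1 and Col1a2, while Lum had means of at most 0.01 CPM in every group and Dcn of at most 1.61 CPM. In NF1-MET;sgP53, 4 of the 8 rose and 1 fell, and the sum went from 8932 and 9049 CPM to 30652 and 30592 CPM. Of 6 smooth muscle and pericyte markers, 4 were tested and all 4 rose in each line, the sum going from 703 and 708 CPM to 8119 and 8054 CPM in NF1-MET and from 1119 and 1115 CPM to 8640 and 8722 CPM in NF1-MET;sgP53, mostly Acta2, while Des was at 0.00 to 0.10 CPM. Of the 9 Schwann cell lineage markers 5 were tested; in NF1-MET 2 rose and 1 fell, in NF1-MET;sgP53 2 rose and 2 fell, and the sum, mostly Gap43, went from 21.4 and 21.5 CPM to 6.83 and 6.98 CPM and from 23.5 and 24.0 CPM to 7.55 and 7.28 CPM. The part of these markers in the changes of the 9 genes was not tested.

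NF1-MET;sgP53 against NF1-MET in vehicle asks how the line with the Trp53 guide differed without MET inhibition. Of the 9 genes 5 were higher in NF1-MET;sgP53, 3 were lower and 1 was not called, where 10.9% of 14484 genes were called higher and 12.3% lower. No member exceeded a 2-fold difference except Tnxb, which was at the lower end of measurable levels. The capmatinib comparisons use the same vehicle libraries, so the values are set side by side without a test between them.

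Postn showed the largest of the higher levels in vehicle-treated NF1-MET;sgP53, at 14.2 and 13.1 CPM against 7.58 and 7.15 CPM (log2 fold change 0.87, SE 0.0847, adjusted p = 1.47e-07). Tnc differed by 0.32 (SE 0.0296, adjusted p = 8.00e-08) and Fn1 by 0.30 (SE 0.0208, adjusted p = 1.27e-09), both 1.23-fold to 1.25-fold and without overlap. Thbs1 differed by 0.12 (SE 0.0199, adjusted p = 9.34e-05), a call lost when library totals were used without TMM factors (0.18, adjusted p = 0.0773). Ccdc80 differed by 0.25 (SE 0.0692, adjusted p = 0.0115), a call lost without replicate 1 of NF1-MET (0.18, adjusted p = 0.160), without replicate 1 of NF1-MET;sgP53 (0.21, adjusted p = 0.0728) and with DESeq2 (adjusted p = 0.0991).

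Thbs2 was lower in vehicle-treated NF1-MET;sgP53, with -0.52 as its log2 fold change (SE 0.0286, adjusted p = 3.87e-11), at 332 and 324 CPM against 477 and 449 CPM. Tnxb was lower by -1.02 (SE 0.243, adjusted p = 0.0041), which became -0.84 with an adjusted p of 0.0737 without replicate 1 of NF1-MET. Emilin1 was lower by -0.11 (SE 0.0321, adjusted p = 0.0166), a call lost without replicate 1 of NF1-MET (-0.087, adjusted p = 0.174), without replicate 2 of NF1-MET;sgP53 (-0.10, adjusted p = 0.0697), with library totals (-0.053, adjusted p = 0.694) and with DESeq2 (adjusted p = 0.154). Sparc differed by 0.015, with a 95% interval of -0.022 to 0.053 (adjusted p = 0.602).

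With capmatinib fewer differences between the lines were called. Of the 9 genes 2 were higher in NF1-MET;sgP53, 1 was lower and 6 were not called, where 5.94% of 14481 genes were called higher and 6.34% lower. Postn was higher by a log2 fold change of 0.30 (SE 0.0274, adjusted p = 5.47e-07) and Ccdc80 by 0.19 (SE 0.0274, adjusted p = 8.94e-05), both without overlap between the lines. Thbs2 was lower by -0.11 (SE 0.0283, adjusted p = 0.0158), a call lost without replicate 2 of NF1-MET with capmatinib (-0.091, adjusted p = 0.145) and without the filter on low counts (-0.11, adjusted p = 0.0552), and the value became 0.0068 with library totals.

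Fn1 and Tnc overlapped between the lines in capmatinib, with log2 fold changes of 0.0093 (95% interval -0.031 to 0.050) and 0.031 (-0.032 to 0.093). Without replicate 2 of NF1-MET with capmatinib the Fn1 difference was 0.045 and was called (adjusted p = 0.0313). Thbs1 differed by -0.026 (95% interval -0.054 to 0.0011, adjusted p = 0.232), Sparc by 0.031 (0.0049 to 0.057, adjusted p = 0.124) and Emilin1 by 0.054 (-0.0064 to 0.115, adjusted p = 0.269). Tnxb differed by -0.35 with an interval of -1.07 to 0.37.

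The interaction of line and treatment tests directly whether the response to capmatinib differed between the lines. Over all 14497 genes, 3.85% had a log2 fold change called higher in NF1-MET;sgP53 than in NF1-MET and 5.86% one called lower, a balance that turned to 713 genes higher and 509 lower without replicate 2 of NF1-MET;sgP53 with capmatinib. Of the 9 genes, 2 were in the first class and 4 in the second. Postn (-0.59, SE 0.0651, adjusted p = 6.53e-07), Fn1 (-0.31, SE 0.0325, adjusted p = 3.40e-07), Tnc (-0.31, SE 0.0418, adjusted p = 1.46e-05) and Thbs1 (-0.17, SE 0.0226, adjusted p = 1.09e-05) rose in both lines and by less in NF1-MET;sgP53. Thbs2 (0.39, SE 0.0414, adjusted p = 4.04e-07) fell in both lines and by less in NF1-MET;sgP53.

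Emilin1 had an interaction of 0.14 (SE 0.0431, adjusted p = 0.0335), a rise larger in NF1-MET;sgP53. This call was lost in each fit without a library except those without replicate 2 of NF1-MET with vehicle and replicate 2 of NF1-MET;sgP53 with capmatinib, and the adjusted p of the lost calls was 0.0557 to 0.176. It was also lost with DESeq2's Wald test (0.16, adjusted p = 0.0541). With library totals in place of TMM factors the interactions of Fn1 (-0.23, adjusted p = 0.459), Tnc (-0.23, adjusted p = 0.410), Thbs1 (-0.091, adjusted p = 0.870) and Emilin1 (0.22, adjusted p = 0.450) were not called, while those of Postn and Thbs2 were. Leaving Gm42418 out of the totals and TMM factors changed no interaction call of the 9 genes. Sparc (-0.0044, 95% interval -0.050 to 0.041) and Ccdc80 (-0.078, -0.200 to 0.043) were not called, and Tnxb (0.64, -0.25 to 1.53) was not called with a far wider interval.

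**Figure D4:**
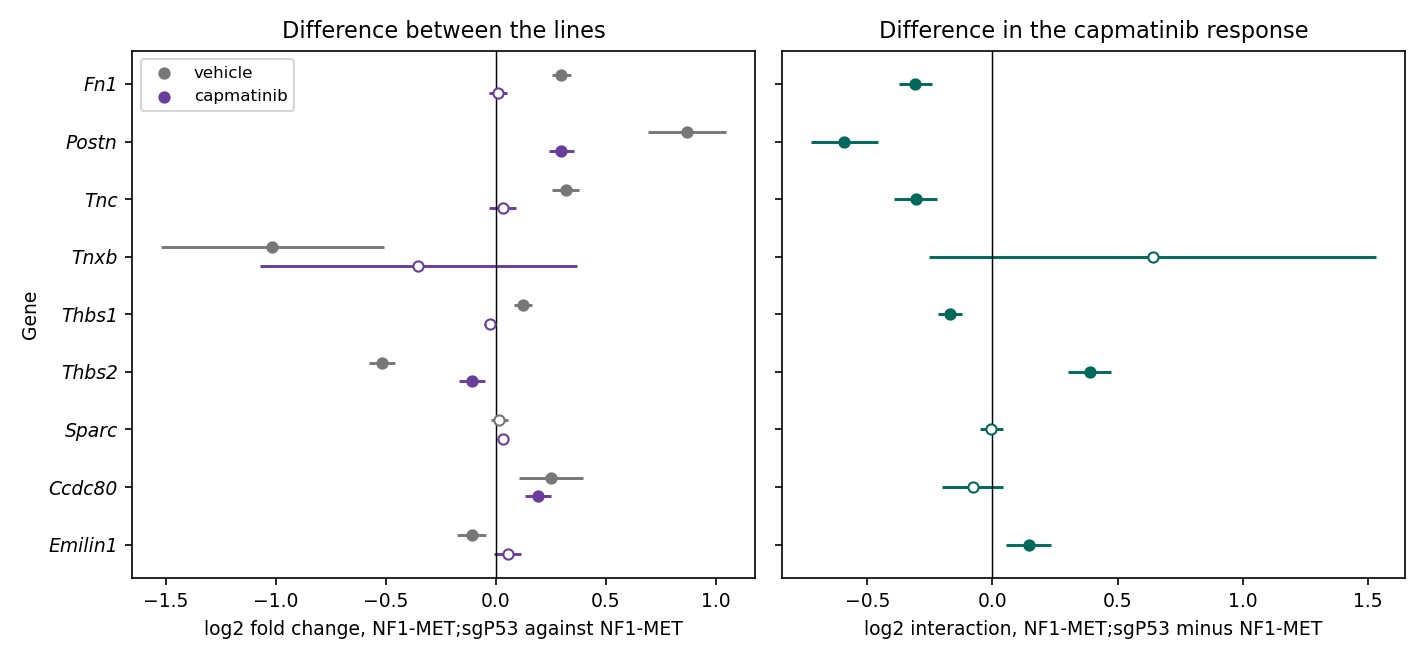
Left, log2 fold change of NF1-MET;sgP53 against NF1-MET for each gene with vehicle and with capmatinib; right, the log2 interaction, the capmatinib response in NF1-MET;sgP53 minus that in NF1-MET. Bars are 95% intervals and open points were not called; for Fn1, Postn, Tnc and Thbs1 the vehicle difference lies right of 0, the capmatinib difference nearer to 0 and the interaction left of 0.

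Other matricellular and adhesive glycoprotein genes were taken from a list of 27, of which 17 could be tested. In NF1-MET 11 of the 17 rose and 6 fell with capmatinib, with a median log2 fold change of 1.36, and in NF1-MET;sgP53 10 rose and 6 fell, with a median of 0.79. The largest changes were those of Ccn5, Tnn, Ccn2 and Ccn1. Ccn2 and Ccn1, which code for secreted CCN proteins that bind integrins and are known YAP targets, were at 273 and 274 CPM and at 268 and 263 CPM in vehicle-treated NF1-MET and at 2793 and 2733 CPM and 1561 and 1579 CPM with capmatinib. Their log2 fold changes were 3.32 (SE 0.0196) and 2.55 (SE 0.0210) in NF1-MET, against 2.37 and 1.98 in NF1-MET;sgP53. Both interactions were called, at -0.97 (adjusted p = 2.19e-18) and -0.58 (adjusted p = 1.61e-12).

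Ccn5, a CCN protein without the C-terminal domain of its relatives, rose from 0.96 and 0.73 CPM to 70.3 and 66.9 CPM in NF1-MET and from 2.85 and 2.29 CPM to 95.5 and 99.1 CPM in NF1-MET;sgP53, with log2 fold changes of 6.33 and 5.25 and an interaction of -1.09 (adjusted p = 2.21e-04). Tnn, the tenascin-W gene, rose by 3.65 and 4.73 to about 6.01 and 6.95 CPM. It started from means of only 0.47 CPM (18 counts) in NF1-MET and 0.25 CPM (10 counts) in NF1-MET;sgP53, so the sizes of its rises are uncertain. Spp1, the osteopontin gene, which was chosen after its values were seen, fell from 5210 and 5076 CPM to 1503 and 1459 CPM in NF1-MET and from 3951 and 3731 CPM to 1278 and 1268 CPM in NF1-MET;sgP53 (log2 fold changes -1.81 and -1.59). Between the lines 7 genes of this list were higher in NF1-MET;sgP53 and 6 lower with vehicle, 3 higher and 9 lower with capmatinib, and 5 interactions were called in each direction.

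Receptors for these proteins were taken from a list of 19, of which 16 could be tested. With capmatinib 12 rose and 1 fell in each line, with medians of 0.44 and 0.32. Itga8, which pairs with the integrin β1 chain to bind fibronectin, tenascin-C and other ligands, rose from 16.8 and 16.5 CPM to 293 and 285 CPM in NF1-MET and from 9.75 and 9.67 CPM to 229 and 213 CPM in NF1-MET;sgP53 (log2 fold changes 4.10 and 4.51). Itga5, the alpha chain of the main fibronectin receptor, had similar rises of 0.97 in NF1-MET and, in the second line, 0.96. Itgb5, whose product pairs with the αv chain, rose by 1.65 and 1.45, and Itga9, a tenascin-C receptor chain, rose by 2.15 and 1.86 from about 0.92 and 1.22 CPM. The genes that fell were Itga4 in NF1-MET (-0.44) and Sdc1 in NF1-MET;sgP53 (-0.25). Between the lines 3 receptors were higher and 7 lower in NF1-MET;sgP53, with vehicle and again with capmatinib, and the interaction was called higher for 2 and lower for 4.

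**Figure D5:**
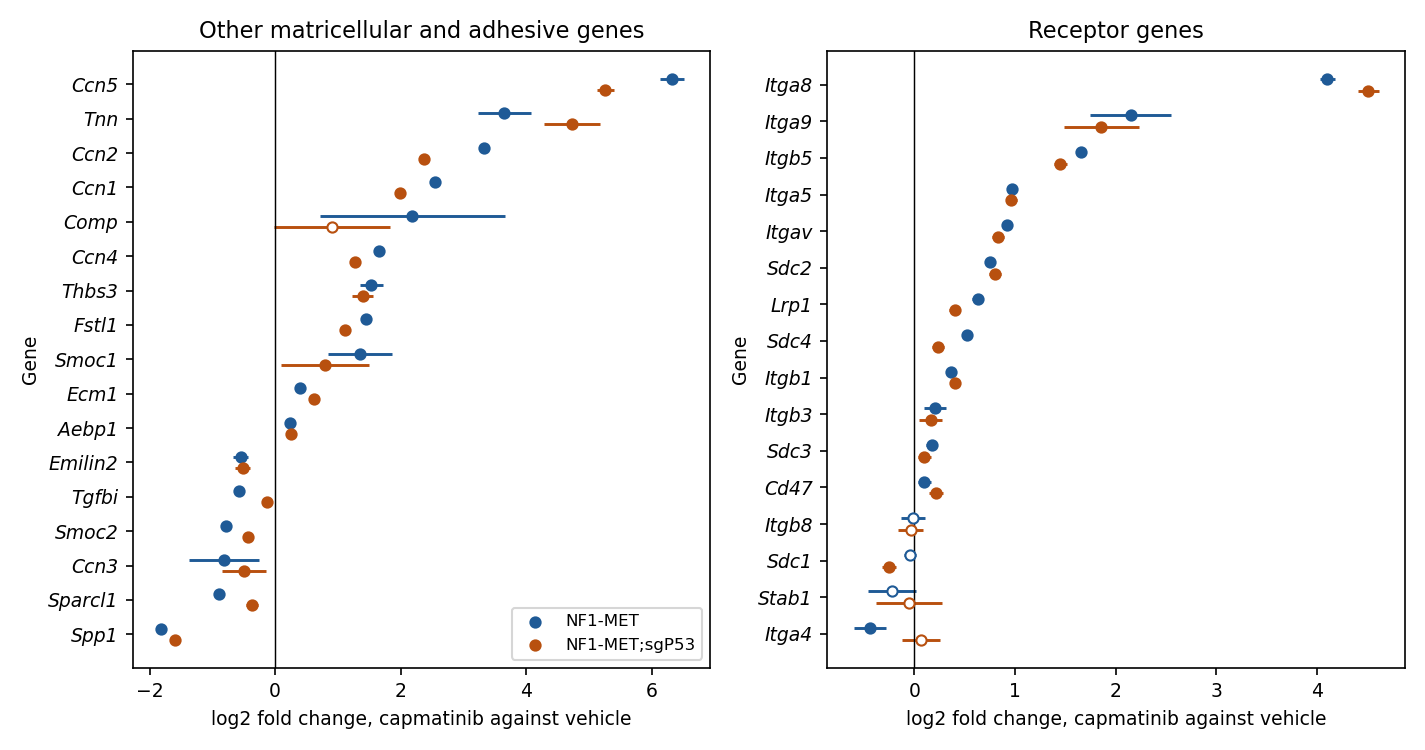
Log2 fold change with capmatinib in both lines, with 95% intervals, for the 17 other matricellular and adhesive genes tested (left) and the 16 receptor genes tested (right); open points were not called. Ccn5 stands at 6.33 and 5.25 and Spp1 at -1.81 and -1.59, and Itga8 stands at 4.10 and 4.51.

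Genes most like each member were sought over the 8 libraries by the root mean square (RMS) difference of log2 CPM, each gene centred on its own mean, as a description with no test. The closest were Klf7 for Fn1 (RMS 0.0396), Plscr4 for Tnc (0.0277), Gab1 for Sparc (0.0267), Ptprb for Emilin1 (0.0339), Adamtsl3 for Thbs1 (0.0419) and Tbc1d1 for Thbs2 (0.0351). Postn was closest to Actg2, the gamma smooth muscle actin gene (0.175), with Plxdc2 and Mustn1 after it. Ccdc80 was closest to Col10a1 (0.179), then Neb and Tgfb2. For the sparsely counted Tnxb the closest gene was AI606473 at 0.217. Every gene was compared over the same 8 libraries of 4 groups, so these distances share their samples. Among the 9 genes themselves the closest pairs were Sparc with Emilin1 (0.0724) and Fn1 with Tnc (0.0749), and Thbs2 was closest to Tnxb (0.368).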

How the data were processed

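Poly(A) RNA of 2 libraries in each of 4 groups was sequenced from both ends. Per the submitters' processing notes and the paper's methods, the authors trimmed adapters and weak bases, aligned to mm10 with STAR 2.5.2b and deposited raw counts per gene from STAR, neither normalized nor filtered. The annotation and strand setting of the counting are not given in the sources used here. GENCODE release M21 (mm10), which held 99.56% of the identifiers, gave positions and exon lengths.

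The 9 genes, the gene lists and the tests were chosen with earlier results of these data known. All 9 genes are named. A further marker of the Schwann cell lineage list is not reported here. Of the lists of 27 other matricellular genes and 19 receptors, the 4 called genes with the largest absolute log2 fold change in NF1-MET and at least 1 CPM in the higher group are named, with any gene stated to be chosen later. The receptor genes that fell, Itga4 and Sdc1, are named outside this rule. For each of the 9 genes the nearest 3 genes in pattern were found (log2 CPM with a prior count of 2).

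A minimum of 10 counts in 2 or more libraries left 14497 genes, and a gene also needed a count other than 0 in 2 libraries of the comparison. In R 4.3.3, counts were tested with edgeR 4.0.16 (original quasi-likelihood F-test, TMM factors within the libraries of a comparison). P-values were adjusted by Benjamini-Hochberg over every gene of the fit, with a threshold of 0.05. The interaction used all 8 libraries. Procedures were tested on simulated data. Alternatives were DESeq2 1.42.0 (size factors, and its Wald test), library totals, totals without Gm42418, edgeR's bias-adjusted test, no filter and a stricter one, the replicate block, 1 model of all libraries, and each library left out. The share of counts without Gm42418 was added after the data were seen.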

Additional observations from a re-analysis of the deposited data

Results flagged for a closer look

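In edgeR's test of the interaction, the response to capmatinib was called different between the lines for 6 of the 9 genes, given as the log2 fold change in NF1-MET;sgP53 minus that in NF1-MET. For Postn it was -0.59 (adjusted p = 6.53e-07), for Fn1 -0.31 (adjusted p = 3.40e-07), for Tnc -0.31 (adjusted p = 1.46e-05) and for Thbs1 -0.17 (adjusted p = 1.09e-05), each a smaller rise in NF1-MET;sgP53. For Thbs2 it was 0.39 (adjusted p = 4.04e-07), a smaller fall, and for Emilin1 0.14 (adjusted p = 0.0335), a larger rise. With library totals in place of TMM factors the calls of Postn and Thbs2 held, and those of Fn1 (adjusted p = 0.459), Tnc (adjusted p = 0.410), Thbs1 (adjusted p = 0.870) and Emilin1 (adjusted p = 0.450) were lost. The Emilin1 call was also lost with DESeq2 (adjusted p = 0.0541) and in most fits without a library. Over all genes tested, 3.85% were called in the positive and 5.86% in the negative direction. In capmatinib the levels of Fn1 and Tnc overlapped between the lines, whereas in vehicle both were higher in NF1-MET;sgP53. The cause of these differences was not tested.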

How the results depend on the processing

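Of 612 recomputed values of the 9 genes, 562 kept their direction and side of the threshold, 25 lost a call in the same direction, 1 lost its call and turned (Thbs2, below), 1 gained a call, and 23 that had no call changed sign. Library totals moved the median over all genes, in log2, to -0.18 for capmatinib in NF1-MET, to -0.12 in NF1-MET;sgP53 and to 0.11 for the lines in capmatinib, and the share of called genes that were higher from 50.55% to 35.47%, from 50.62% to 39.79% and from 48.37% to 80.63%. For the lines in vehicle that share went from 47.09% to 63.27% (57.17% with all 8 libraries in 1 model), and for the interaction from 39.66% to 60.95% (58.79% without Gm42418, 54.29% without the filter).

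With library totals, the genes called were 3260 higher for capmatinib in NF1-MET;sgP53 (main 4963), 743 lower for the lines in vehicle (main 1775), 537 higher and 129 lower for the lines in capmatinib (main 860 and 918), and 192 higher and 123 lower for the interaction (main 558 and 849). The 9 genes then gave 0 lower in capmatinib, where the Thbs2 difference turned to 0.0068, and 1 interaction higher and 1 lower. Without Gm42418 the interaction was called higher for 873 genes. DESeq2's Wald test gave 826 higher and 1089 lower for the lines in vehicle, 428 and 420 in capmatinib, and 430 lower for the interaction; of the 9 genes it called 1 lower for capmatinib in NF1-MET and 1 interaction higher. Without the filter 515 genes were higher and 555 lower between the lines in capmatinib, with 0 of the 9 lower.

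With each library left out in turn, the number of the 9 genes called lower ranged from 1 to 2 for capmatinib in NF1-MET (1 without replicate 1 of either treatment), from 1 to 3 for the lines in vehicle (1 without replicate 1 of NF1-MET) and from 0 to 1 in capmatinib (0 without replicate 2 of NF1-MET), and interactions called higher from 1 to 2. The interaction was called lower for 509 to 738 genes, fewest without replicate 2 of NF1-MET;sgP53 with capmatinib, where 713 were called higher and the higher share of called genes went from 39.66% to 58.35%. A lone library was assumed to vary like the other group. Deviations from group means correlated by -0.054 to 0.102 between libraries of the same replicate number over all genes kept, and by -0.057 to 0.253 over those with a mean of at least 100 counts. In neither set was every pair of groups positive, so the numbers were not taken as pairs. The replicate block changed none of the 45 calls and gave 7 higher and 2 lower for capmatinib in NF1-MET, then 7 and 1 in NF1-MET;sgP53, and 2 and 4 for the interaction. With 2 libraries a group the depth leaves Tnxb, at 20 to 74 counts, the least certain.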
